A study of Mus musculus with 8 samples.

Results

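SR proteins and heterogeneous nuclear ribonucleoproteins (hnRNPs) are the main families of RNA-binding proteins that decide which splice sites of a transcript are used. Their genes were taken by a rule on names, as every listed symbol that is Srsf with a number or that begins with Hnrnp. The families themselves were chosen with earlier results of these data known. The rule took 31 of 15853 genes, 10 SR genes and 21 hnRNP symbols, and 30 of these were tested. Hnrnpa1l2-ps2, an annotated processed pseudogene with a mean normalized count of 2.81 in the authors' deposited table, received no adjusted p-value and takes no part in any count below.

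The cells were primary macrophages grown from mouse bone marrow over 7 days in L929-conditioned medium, then exposed for 24 h to palmitate (C16:0, 250 uM), glucose (25 mM) and insulin (10 nM). All 8 libraries were so treated, and untreated cells were not analysed here. The 4 control libraries came from Mirc11fl/fl Mirc22fl/fl Lyz2+/+ cells and the 4 knockout libraries from Mirc11fl/fl Mirc22fl/fl Lyz2Cre/Cre cells. Both groups therefore carried the loxP-flanked miRNA clusters, and the groups differ in the Cre insertion at Lyz2 as well as in the clusters it is meant to delete. Cre from the Lyz2 locus acts in myeloid cells, and how completely it deleted the clusters was not measured here. The sources used here do not give age, sex or the number of animals, and the p-values can speak only of how much these libraries vary, some of which may be technical.

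SR proteins bind exonic enhancer sequences through RNA recognition motifs and recruit the spliceosome through a domain rich in arginine and serine, which SR protein kinases and CDC-like kinases phosphorylate. hnRNPs coat nascent RNA and often act in the other direction, blocking or bridging splice sites, besides roles in mRNA export, stability and translation. Many members of both families limit their own amount by splicing that yields transcripts degraded by nonsense-mediated decay, so a level of total mRNA counts productive and unproductive transcripts together.

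SR and hnRNP genes were called about as often as tested genes in general, and their changes were small. Of the 30 tested, 7 passed an adjusted p of 0.05, 3 higher and 4 lower in the knockout. That is 23.3% of the members, against 23.0% of all 14619 tested genes. The largest change among the members was a log2 ratio (log2 fold change, knockout over control) of -0.27. A difference above 1.2-fold was seen in 2 of 30 members (6.67%), Srsf9 and Hnrnpdl, and in 37.9% of all tested genes. The families are abundant, with means from 845 to 42412 normalized counts. In that range of means 20.2% of genes differed by more than 1.2-fold and 25.5% of 7918 genes were called. Those genes share only the limits of the range with the members and are not matched on abundance. Their median mean was 3405 normalized counts, against 10222 for the members, and their median SE was 0.08 against 0.06. The header leaves the numerator unnamed, so the direction of every value was read from Lyz2, whose 2 copies carry Cre in the knockout. Lyz2 had a log2 ratio of -9.10 (standard error 0.42) in the authors' deposited table. Taken as lower in the knockout, it sets the sign and is no separate check of the labels.

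**Figure D1:**
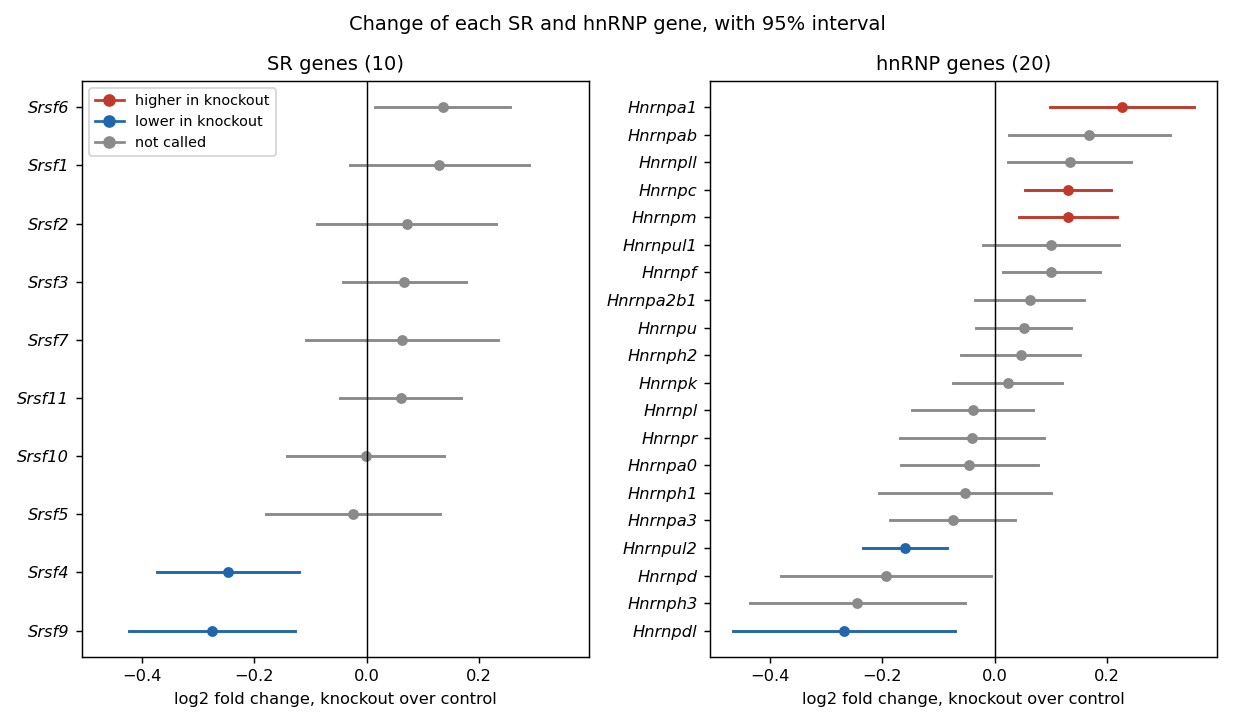
Log2 ratio (knockout over control, x axis) of each tested SR gene (left) and hnRNP gene (right), ordered by size. Points are the authors' fold changes, lines their 95% intervals from the deposited standard errors, red and blue the genes called higher or lower; no point lies beyond 0.28 on either side of 0, and centring on the summed group means would move every point to the right by 0.06.

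Values of single libraries carry numbers that match no sample label and were not used, so each gene is given by its mean over all libraries, by group means derived from that mean and the fold change, and by the deposited standard error. Whether single libraries of the groups overlap was not examined.

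Among SR genes, 2 of 10 were lower in the knockout and 0 higher, where 11.7% and 11.3% of all tested genes were. In the members' range of means, 1370 of 7918 tested genes were lower and 653 higher. By the unadjusted p under 0.05, 3 of the 10 passed (30%), near the 34.8% of all tested genes. With fold changes centred on the summed group means, 1 SR gene, Srsf6, was called higher, as were 16.0% of all tested genes. The lower genes, Srsf9 and Srsf4, had the 2 lowest means of their family.

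Srsf9 encodes a short SR protein with 2 RNA recognition motifs and a small serine-rich tail. Its derived mean was 3780 normalized counts in control and 3125 in knockout cells. The authors' deposited table gives a log2 ratio of -0.27 (standard error 0.08, adjusted p = 0.00268 by DESeq2), so that it fell by 17.4% with a 95% interval from -25.4% to -8.42%. The gene lies on chromosome 5, 115327177 to 115333080 (GRCm38), on the plus strand.

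Srsf4 encodes the SR protein formerly called SRp75, whose arginine-serine tail is the longest of the classical members. The derived means were 3207 in control and 2704 in knockout cells. Its log2 ratio in the authors' deposited table was -0.25 (standard error 0.06, adjusted p = 0.00144 by DESeq2), so that it fell by 15.7% with an interval from -22.8% to -8.00%. The gene lies on chromosome 4, 131873617 to 131901706, plus strand. Its reads are uncertain: 66.5% of the 31-base stretches of its coding transcripts also occur in Gm12992, a noncoding transcript annotated on the opposite strand, and the sources used here do not say whether counting used strand.

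The 8 other SR genes missed the threshold, with 6 above 0 and 2 below. Srsf6, an enhancer-binding relative of Srsf4, came nearest, at a log2 ratio of 0.14 (standard error 0.06, adjusted p = 0.0925) in the authors' deposited table. Srsf5, the third of this subgroup and the SR gene with the highest mean (19529 normalized counts), was at -0.02 (standard error 0.08) in the authors' deposited table. Within 1 subgroup of close relatives, then, Srsf4 was called lower while Srsf5 and Srsf6 were not called. Srsf6 was called higher after centring on the summed means (adjusted p = 0.00914). The difference between them was not tested, since the deposited table holds no covariance between genes.

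Srsf1, the prototype of the family and a known oncoprotein, had the second highest mean of the SR genes. Its log2 ratio was 0.13 (standard error 0.08, adjusted p = 0.249) in the authors' deposited table. Its close relative Srsf9 stood on the other side of 0. Srsf3 and Srsf7, which share a fold and link splicing to mRNA export, were at 0.07 (standard error 0.06) and 0.06 (standard error 0.09) in the authors' deposited table. Srsf2, an enhancer-binding protein mutated in myeloid neoplasms, was at 0.07 (standard error 0.08) there, and Srsf11, which has an atypical recognition motif, at 0.06 (standard error 0.05) in the authors' deposited table. Srsf10, a splicing repressor when dephosphorylated, was at -0.0018 (standard error 0.07, adjusted p = 0.989) by the authors' deposited table, and its sign turned with centring on the median or on the summed means. The 95% interval of Srsf10 spans -9.37% to 10.1% and overlaps that of Srsf9 (-25.4% to -8.42%). The difference between these genes was not tested.

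Among hnRNP genes, 3 of 20 were higher in the knockout and 2 lower, beside 11.3% and 11.7% of all tested genes. In the members' range of means, 653 of 7918 tested genes were higher and 1370 lower. An unadjusted p under 0.05 was seen for 10 of 20 (50%), beside 34.8% of all tested genes and 3070 of the 7918 in that range. Hnrnpa1, Hnrnpc and Hnrnpm were the 3 higher genes. Hnrnpul2 and Hnrnpdl were the 2 lower ones. Centred on the summed group means (-0.06), the split over both families became 9 higher and 3 lower. That is 75% of calls higher in place of 42.9%, while over all genes the share went from 49.1% to 70.9%. Hnrnpdl was no longer called.

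**Figure D2:**
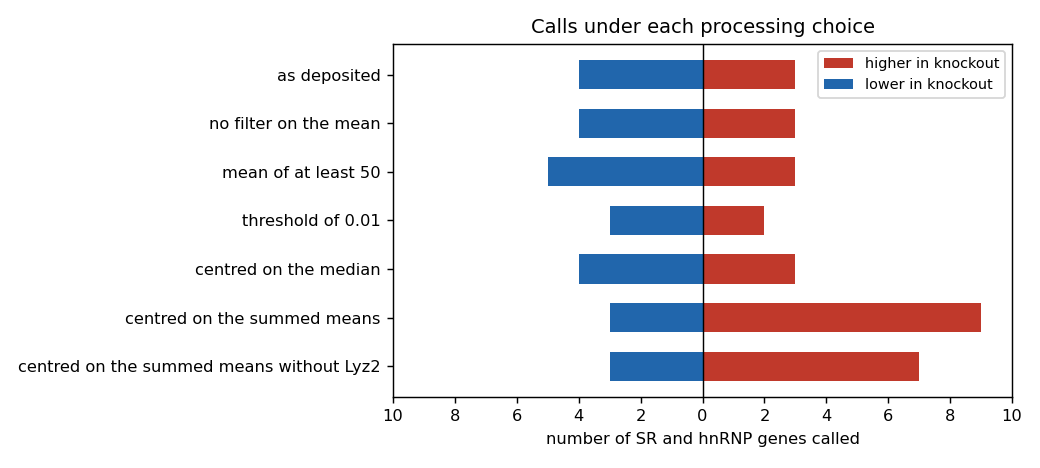
Number of the 30 tested members called higher (right, red) and lower (left, blue) under the deposited setting and 6 other processing choices. The counts are 3 higher and 4 lower as deposited, and 9 higher and 3 lower with centring on the summed group means. Over all genes, the share of calls that were higher went from 49.1% to 70.9% with that centring.

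Hnrnpa1, a shuttling repressor of splice sites that also binds telomeric and viral RNA, showed the largest rise. Its derived mean was 12916 normalized counts in control and 15120 in knockout cells, and the log2 ratio in the authors' deposited table was 0.23 (standard error 0.07, adjusted p = 0.0044 by DESeq2). This is a rise of 17.1% with a 95% interval from 7.12% to 27.9%. It lies on chromosome 15, 103240432 to 103246692, plus strand. Of the 31-base stretches in its coding transcripts, 49.4% recur in 26 other annotated genes, of which 25 are pseudogenes, so its value is uncertain.

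The 3 other A and B type genes were not called. Hnrnpa2b1, a core packaging protein that also binds modified RNA and is the second most abundant hnRNP gene by mean (41708 normalized counts), was at 0.06 (standard error 0.05, adjusted p = 0.385) in the authors' deposited table. Hnrnpa3 was at -0.07 (standard error 0.06) and the intronless Hnrnpa0, which binds AU-rich elements of cytokine mRNAs, at -0.05 (standard error 0.06) in the authors' deposited table. The sign of Hnrnpa0 turned with centring on the summed means. The interval of Hnrnpa2b1 reached at most 11.7% above control.

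Hnrnpc, which binds uridine tracts as a tetramer and keeps cryptic exons out of mRNA, rose from a derived mean of 10802 to 11826. Its log2 ratio in the authors' deposited table came to 0.13 (standard error 0.04, adjusted p = 0.00658 by DESeq2), a rise of 9.48% with an interval from 3.81% to 15.5%. It lies on chromosome 14, 52073377 to 52104028, minus strand. Hnrnpm, a GU-rich element binder tied to innate immune transcripts in macrophages, rose from 13128 to 14367. Its log2 ratio was 0.13 (standard error 0.04, adjusted p = 0.0199 by DESeq2) in the authors' deposited table. It lies on chromosome 17, 33646233 to 33686860, minus strand, and 22.3% of its 31-base stretches recur in March2, which overlaps it on the same strand. Both rises are close to 1.1-fold, and both genes were called with every scaling tried.

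Hnrnpul2, a relative of Hnrnpu with roles at DNA breaks, had the smallest adjusted p of all members as deposited. The derived means were 23539 in control and 21083 in knockout cells. Its log2 ratio was -0.16 (standard error 0.04, adjusted p = 0.000395 by DESeq2) in the authors' deposited table, so that it fell by 10.4% with an interval from -14.9% to -5.70%. It lies on chromosome 19, 8820010 to 8834143, plus strand. With centring on the summed means its log2 ratio was -0.10 and its adjusted p 0.0499. The other genes of its subgroup were not called as deposited. Hnrnpu, the scaffold attachment protein of the nuclear matrix and the most abundant member by mean (42412 normalized counts), was at 0.05 (standard error 0.04, adjusted p = 0.408), and Hnrnpul1 at 0.10 (standard error 0.06, adjusted p = 0.234), both in the authors' deposited table. The intervals of Hnrnpul2 (-0.23 to -0.08 on the log2 scale) and Hnrnpu (-0.03 to 0.14) do not overlap, but the difference between the genes was not tested. With centring on the summed means Hnrnpu (adjusted p = 0.0372) and Hnrnpul1 (adjusted p = 0.0386) were called higher, and without Lyz2 in the sums neither was.

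Hnrnpdl was the least certain of the 7 calls. The gene encodes a relative of AUF1 that regulates its own splicing, and its derived mean fell from 7309 to 6070. The log2 ratio in the authors' deposited table was -0.27 (standard error 0.10, adjusted p = 0.0371 by DESeq2), so that it fell by 16.9% with an interval from -27.6% to -4.78%. It lies on chromosome 5, 100033577 to 100039664, minus strand. Centring on the summed means ended this call (adjusted p = 0.131). Hnrnpd itself, which encodes AUF1, a factor that speeds decay of AU-rich cytokine mRNAs, was at -0.19 (standard error 0.10, adjusted p = 0.13) in the authors' deposited table. The third relative, Hnrnpab, was at 0.17 (standard error 0.07, adjusted p = 0.0771) by the authors' deposited table, and was called higher after centring on the summed means (adjusted p = 0.0108).

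Hnrnph3 and Hnrnpll also lay just outside the threshold. Hnrnph3, with the lowest mean of the tested members before division by length, had a log2 ratio of -0.24 (standard error 0.10, adjusted p = 0.0534) in the authors' deposited table. It passed when only genes with a mean of at least 50 were adjusted for (adjusted p = 0.0481). Its relatives, which bind G-rich tracts, were at 0.10 for Hnrnpf (standard error 0.04, adjusted p = 0.0788), -0.05 for Hnrnph1 (standard error 0.08) and 0.05 for Hnrnph2 (standard error 0.05) in the authors' deposited table. Of the 31-base stretches of Hnrnpf, 66.2% recur in other genes, so its value is uncertain too. Hnrnpll, which directs Ptprc splicing in activated lymphocytes, was at 0.13 (standard error 0.06, adjusted p = 0.0667) in the authors' deposited table. Centring on the summed means called Hnrnpll (adjusted p = 0.0042) and Hnrnpf (adjusted p = 0.00204) higher. The relative of Hnrnpll, Hnrnpl, was at -0.04 (standard error 0.05) in the authors' deposited table.

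Hnrnpk and Hnrnpr complete the family. Hnrnpk, a poly(C)-binding protein that acts in transcription, splicing and translation, was at 0.02 (standard error 0.05, adjusted p = 0.786) in the authors' deposited table, with an interval from -4.99% to 8.69%. Hnrnpr was at -0.04 (standard error 0.07) in the authors' deposited table. The 95% intervals of the 23 members that were not called reached from -26.1% (Hnrnph3) to 24.1% (Hnrnpab) of control. Over all 30 members, every interval lay within 1.5-fold of control, as did those of 60.3% of all tested genes and 87.9% of tested genes in the same range of means.

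As lists, both families sat near the middle of all genes. The median log2 ratio was 0.06 for SR genes and 0.03 for hnRNP genes, against 0.00 over all tested genes and -0.05 over tested genes in the members' range of means. Centred on the summed means, the medians were 0.12 for SR genes and 0.10 for hnRNP genes. Summed derived means were 78045 in control and 79577 in knockout cells for SR genes, 1.96% higher in the knockout. For hnRNP genes they were 325363 and 333777, 2.59% higher. Neither sum has a test. The median SE of the members was 0.06, against 0.12 over all tested genes and 0.08 in the same range of means.

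**Figure D3:**
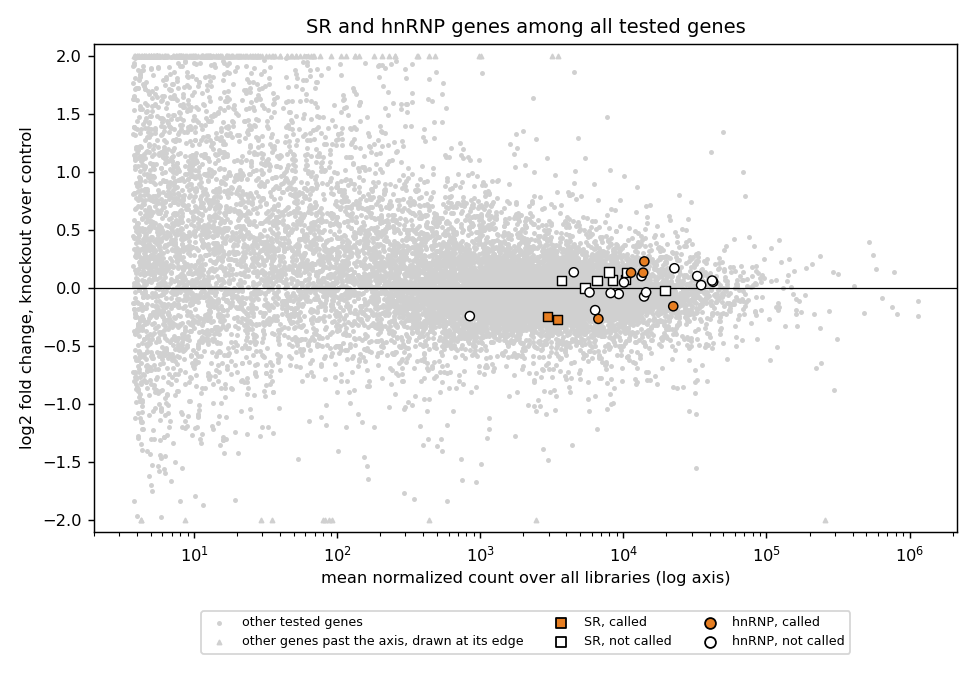
Log2 ratio (y axis, knockout over control) against mean normalized count over all libraries (x axis, log scale) for all tested genes, with SR genes as squares and hnRNP genes as circles, filled where called. The 30 members lie between 845 and 42412 normalized counts and within 0.28 of 0, inside the cloud of other genes at those means.

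Levels between genes were compared per length, as mean normalized count per kilobase of the longest principal coding transcript. Hnrnpa2b1 was highest at 25095, followed by Hnrnpf at 13678, Hnrnpk at 13067 and Srsf5 at 12455 normalized counts per kilobase. The lowest were Hnrnph3 at 382 and Hnrnpr at 270, where the annotated transcript of Hnrnpr is 21452 bases long. Hnrnpk and Srsf5 changed places when the longest coding transcript was used, and Hnrnpa3 went from 8441 to 2711, so neighbours in this order are not separated. The spread of these levels over libraries was not examined. Srsf4 and Srsf9, the 2 SR genes that fell, stood at 1309 and 2971 normalized counts per kilobase.

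The targeted clusters encode miRNAs that bind 3' UTRs through bases 2 to 8, the seed. The mature sequences are shown because the matches counted below complement this seed, which is in capitals (RefSeq, GRCm38.p6).
mmu-miR-23a-3p: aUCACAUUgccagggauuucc
mmu-miR-27a-3p: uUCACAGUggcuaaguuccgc
mmu-miR-27b-3p: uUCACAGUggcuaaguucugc
mmu-miR-24-3p: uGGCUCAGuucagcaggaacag
These are the 4 mature entries used, and miR-23b-3p of Mirc22 is not printed. The miR-27 copies of both clusters share 1 seed, and miR-24 is the same sequence in both. The letters searched, on the mRNA strand, were AATGTGA or ATGTGAA for miR-23, ACTGTGA or CTGTGAA for miR-27 and CTGAGCC or TGAGCCA for miR-24. The first of each pair complements bases 2 to 8 and the second bases 2 to 7 followed by A; where both overlap the match has 8 bases and was counted once.

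Seed matches were counted as a description, without a test. Searching 1 UTR per gene, the longest in GENCODE M21, 9 of 30 members (30%) held a match of at least 7 bases for any of the 3 miRNAs, against 53.4% of 13074 tested genes. The median UTR length was 1304 bases for the members and 1166 for all. Matches for miR-23 lay in 5 members, for miR-27 in 5 and for miR-24 in 4. Matches of 8 bases lay in 3 members, namely Hnrnpr, Hnrnpu and Srsf6, or 10% against 19.5% of all tested genes.

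Of the 7 called members 2 held such a match, 1 in each direction, a share close to that over all members. Hnrnpc, called higher, has a miR-23 match of 7 bases, and Hnrnpul2, called lower, has 2 for miR-23 and 1 for miR-27, all in the last exon. Hnrnpa1, Hnrnpm, Srsf4, Srsf9 and Hnrnpdl hold none in the UTR searched. The matches of the called genes are shown first, then the 8-base matches of the members that were not called, 5' to 3' with the match in capitals and up to 11 bases on each side.
Hnrnpc, miR-23, chr14:52073971-52073977, minus strand: tataattacccATGTGAAgtactcttacc
Hnrnpul2, miR-23, chr19:8832701-8832707, plus strand: ttggaaagactATGTGAAtgtgtgtatgg
Hnrnpul2, miR-23, chr19:8832898-8832904, plus strand: ctgggttcaagAATGTGAgcaggatatag
Hnrnpul2, miR-27, chr19:8832018-8832024, plus strand: agagggggtgcCTGTGAAcagggcagtgg
Hnrnpu, miR-23, chr1:178326834-178326841, minus strand: ctgtgtacatcAATGTGAAtataattgatt
Srsf6, miR-24, chr2:162936467-162936474, plus strand: ataaaagctttCTGAGCCAcagccttttaa
Hnrnpr, miR-23, chr4:136350842-136350849, plus strand: ggttatgtgtgAATGTGAAacagagctgag
Hnrnpr, miR-23, chr4:136352097-136352104, plus strand: taccatgtgtgAATGTGAAccctgtcagaa
Hnrnpr, miR-27, chr4:136341119-136341126, plus strand: atgtcatttgcACTGTGAActaaagtcatt
Hnrnpr, miR-27, chr4:136346298-136346305, plus strand: ggtctagagaaACTGTGAAggggcaaatgg
Hnrnpr, miR-24, chr4:136350589-136350596, plus strand: gcccttaactgCTGAGCCActtctctagcc
Hnrnpr, miR-24, chr4:136355887-136355894, plus strand: gaggatcactgCTGAGCCAcccatggagtg
Hnrnpr, with 12 matches in a UTR of 19419 bases, holds more than any other member, and its log2 ratio was -0.04 (standard error 0.07) in the authors' deposited table. Hnrnpu, with 4 miR-23 matches, was at 0.05 (standard error 0.04) in the authors' deposited table. Srsf6, with its 8-base miR-24 match, was at 0.14 (standard error 0.06) in the authors' deposited table, and none of these 3 was called. The remaining matches, of 7 bases, lie in Srsf1 and Hnrnpd with 2 each and in Srsf3 and Hnrnpf with 1 each. The 9 members with a match had a median log2 ratio of 0.07 and the 21 without one 0.02. For SR genes the medians were 0.13 for the 3 with a match and -0.0018 for the 7 without. For hnRNP genes they were 0.006 for the 6 with a match and 0.035 for the 14 without. These groups are small, the median SE of the members was 0.06, and no difference between the medians was tested. Over all tested genes with a 3' UTR the medians were 0.02 with a match and -0.04 without. Which of these transcripts ends the cells used was not measured, and a match is not a binding site.

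Annotated transcripts marked for nonsense-mediated decay were common among the members. GENCODE M21 lists such a transcript for 9 of 10 SR genes, Srsf10 being the exception, and for 10 of 20 hnRNP genes. Over 13192 tested protein-coding genes the share was 28.4%. Retained-intron transcripts were listed for 22 of the 30 members (73.3%) and for 57.4% of all. The members also had more annotated transcripts, with a median of 7.5 against 5, and the part of this in those shares was not tested. Of the 7 called genes, Srsf4, Srsf9, Hnrnpa1 and Hnrnpdl have such a decay transcript and Hnrnpc, Hnrnpm and Hnrnpul2 have none. The deposited values are sums per gene, so a change in the share of these transcripts was not measured.

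Kinases that act on SR proteins were examined as the closest partners, from a list of 14 genes that also holds phosphatase subunits and the import receptor. Of the 14, 1 was higher and 3 lower in the knockout, 28.6% called beside 23.0% of all tested genes. Srpk2, a cytoplasmic SR protein kinase, rose by a log2 ratio of 0.27 (standard error 0.06, adjusted p = 0.000115) in the authors' deposited table. The nuclear CDC-like kinase genes Clk4 (-0.20, standard error 0.07) and Clk2 (-0.30, standard error 0.11) fell, as did Dyrk1b, a related dual-specificity kinase (-0.25, standard error 0.09), all in the authors' deposited table. Clk3 (-0.14, standard error 0.06) and Clk1 (-0.14, standard error 0.08) were not called, nor was Srpk1 (0.10, standard error 0.05), in the authors' deposited table. Only Srpk2 of the 4 held at a threshold of 0.01, where 14.1% of all tested genes were called.

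Proteins built like the members but named otherwise were examined next. Of 24 proteins with arginine-serine domains, 3 were higher and 1 lower, 16.7% called beside 23.0% of all tested genes. At a threshold of 0.01 the count was 0, and with centring on the summed means it was 7. Over all tested genes these settings called 14.1% and 22.6%. Tra2a, a sequence-specific activator (0.27, standard error 0.09), Srrm2, a scaffold of nuclear speckles (0.23, standard error 0.07), and Bclaf1 (0.20, standard error 0.06) rose in the authors' deposited table, and Luc7l3, a factor near U1, was at -0.28 (standard error 0.09) there. Of 17 hnRNPs under other symbols, 2 were higher and 1 lower (17.6% called), and 0 were called at a threshold of 0.01. An unadjusted p under 0.05 was seen for 6 of the 17, beside 34.8% of all tested genes. Matr3, a nuclear matrix protein (0.17, standard error 0.06), rose and Pcbp4 fell (-0.48, standard error 0.17), in the authors' deposited table. Ptbp1, the polypyrimidine tract repressor once named hnRNP I, was not called at 0.10 (standard error 0.09) in the authors' deposited table. Ptbp1 was named with its value known.

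The machinery the members recruit was described in the same way. Of 56 core spliceosome genes 6 were called (10.7%, beside 23.0% of all tested genes), 2 higher and 4 lower. Sf3b5, of the U2 particle (0.15, standard error 0.05), rose, while Plrg1, of the Prp19 complex (-0.18, standard error 0.05), and Snrnp35, of the minor spliceosome (-0.26, standard error 0.08), fell, in the authors' deposited table. Of 18 genes of nonsense-mediated decay and the exon junction complex, 0 were higher and 2 lower by the authors' DESeq2 test. That is 11.1% called, beside 23.0% of all tested genes. An unadjusted p under 0.05 was seen for 3 of the 18, beside 34.8% of all tested genes. The 2 called genes were Rbm8a (-0.25, standard error 0.09) and Smg9 (-0.30, standard error 0.11) in the authors' deposited table. Both calls were lost with centring on the summed means. No list-level test was run, so no list is shown to differ from another.

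Of 29 other regulators of splicing, 4 were higher and 1 lower, 17.2% called beside 23.0% of all tested genes. Celf1, a GU-rich element binder that competes with muscleblind proteins, rose by a log2 ratio of 0.49 (standard error 0.08, adjusted p = 1.32e-07 by DESeq2) in the authors' deposited table, more than any SR or hnRNP gene. Rbfox2, a GCAUG binder (0.49, standard error 0.19), and Pspc1, of paraspeckles (0.39, standard error 0.12), also rose in the authors' deposited table. Without a filter on the mean, 3 of the 5 were called, and at a threshold of 0.01 only Celf1 was. Over all genes these settings called 20.6% and 14.1%.

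**Figure D4:**
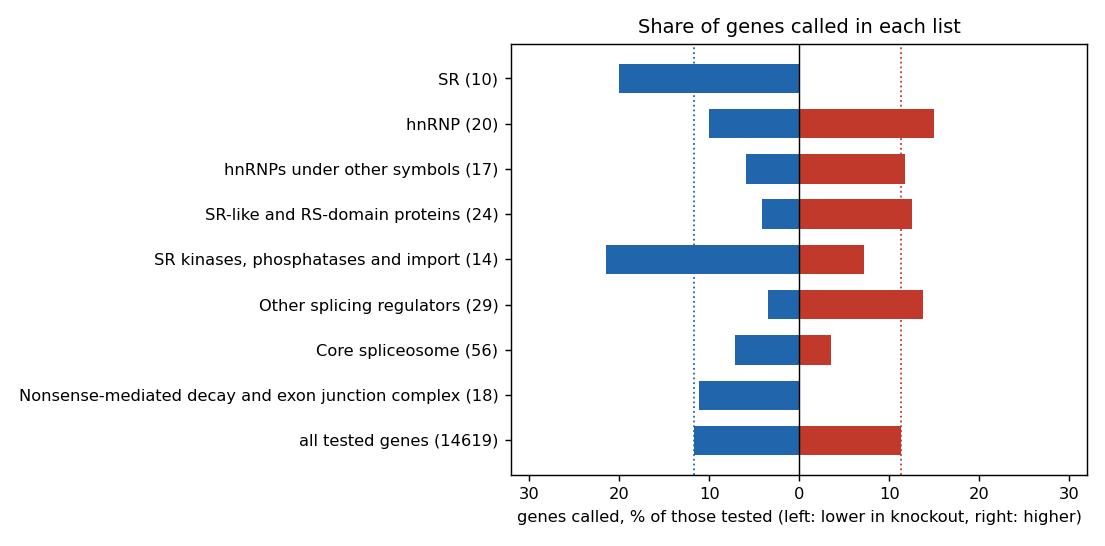
Share of tested genes called lower (left, blue) and higher (right, red) in the knockout for each list, with the number tested in brackets; dotted lines mark the shares over all tested genes, 11.7% lower and 11.3% higher. SR genes show 2 of 10 lower and 0 higher, hnRNP genes 2 of 20 lower and 3 of 20 higher. With centring on the summed means the members' split becomes 3 lower and 9 higher. With it, the share of calls that were higher over all genes goes from 49.1% to 70.9%.

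Markers of other cells moved in the same comparison. Of 19 tested stromal and fibroblast markers 18 were called higher and 0 lower, with a median log2 ratio of 1.86, and their summed derived means were 2615 in control and 9427 in knockout cells. Of 20 macrophage markers 11 were lower and 1 higher, with summed derived means of 3352266 and 2347884. Without Lyz2, which carries Cre and set the sign, 10 of 19 were lower and 1 higher, and the sums were 2840817 and 2346948, a knockout over control ratio of 0.826. Neutrophil markers tested were Mmp8, called lower, and S100a8. The lymphocyte markers tested were Cd79b and Ms4a1, neither called. The defining markers Ly6g, Mpo, Cd3e and Hba-a1 are not among the 15853 listed genes, so they could not be examined. Csf1r and Cd68, which define macrophages, had means of 163291 and 104490 normalized counts in the authors' deposited table. Both were among the markers called lower there (-0.33, standard error 0.09, and -0.26, standard error 0.07). Adgre1 was the 1 called higher (0.25, standard error 0.07). Splicing factors are made in every cell type, and in bulk RNA a smaller number of cells and less RNA per cell cannot be told apart. The part of stromal cells in the 7 calls was not tested.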

How the data were processed

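Polyadenylated RNA of 8 macrophage libraries, 4 per genotype, was sequenced. FastQC, cutadapt, Salmon, DESeq2 and the mm10 build are named in the submitters' processing notes; their roles and versions were not given in sources used here. Per the file headers, the deposited comparison holds a signal (the authors' mean normalized count), a log2 fold change with its SE, a score (the authors' Wald statistic) and the authors' p-value and adjusted p-value. The deposited adjusted p-values were matched by a Benjamini-Hochberg adjustment to within 5.7e-09.

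A gene was called at an adjusted p under 0.05 over all 14619 genes with one, with no second adjustment over a list. Intervals are the fold change with 95% normal bounds. Group means were derived from the mean and fold change, taking equal group sizes. The 8 columns of values per library match no label and were not used, so depth and counting error are unknown here, and the planned limma fits were not run. Positions and transcripts are those of GENCODE release M21 on GRCm38 (mm10). There all 31 members matched 1 gene by symbol. Sharing of sequence was counted over 31-base stretches on either strand, among 141767 transcripts. Protein sequences were not used here.

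Every member is named; from each related list the text gives up to 4 called genes with the smallest adjusted p (some are not reported here), and further genes are named without calls for comparison, chosen after their values were seen. The members and lists were chosen with earlier results of these data known. Alternatives were other filters on the mean, a stricter threshold, centring on the median or on the summed group means, and 8-base matches alone; leaving out Lyz2 from the centring, the longest transcript as length, the macrophage markers without Lyz2 and leaving out members with much shared sequence were added after seeing the data. Steps were tested on simulated data. Python 3.11.15 with scipy 1.17.1 was used.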

Additional observations from a re-analysis of the deposited data

How the results depend on the processing

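Of the 7 called members, Hnrnpa1, Hnrnpc, Hnrnpul2, Srsf4 and Srsf9 were called under all 7 settings, counting the deposited one, and 14 members were called under at least 1. The shares of all tested genes called under every setting or under at least 1 were not computed, so neither count sets the members apart. Without a filter on the mean, and with centring on the median of all genes (a shift of 0.00), the same 7 were called. At a threshold of 0.01, hnRNP calls fell to 3, of which 1 was lower, since Hnrnpdl and Hnrnpm missed it. With centring on the summed means (a shift of -0.06), 12 members were called, 9 higher; hnRNP calls numbered 9, with 8 higher and 1 lower, SR calls higher numbered 1, and the hnRNP median rose to 0.10. Leaving Lyz2 out of those sums (-0.05) gave 7 higher over both families, 6 hnRNP genes higher and 1 lower, and 1 SR gene higher. In that setting 15.0% of all tested genes were called higher and 7.16% lower, so that 67.7% of calls were higher. Over all genes, the share of calls that were higher went from 49.1% to 70.9% with centring on the summed means. The share of all tested genes called was 23.0% as deposited, 14.1% at a threshold of 0.01 and 22.6% with that centring. Signs turned for members near 0 that were never called. With centring on the summed means, Srsf10 came to 0.061, Srsf5 to 0.038, Hnrnpl to 0.024, Hnrnpr to 0.023, Hnrnpa0 to 0.018 and Hnrnph1 to 0.0097. Without Lyz2 these were 0.051, 0.028, 0.014, 0.013 and 0.0075, in the same order and with Hnrnph1 keeping its sign. Srsf10 came to 0.0022 with centring on the median.

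Among the 19 members sharing under 20% of their 31-base stretches with other genes, 4 were called (21.1%): 1 SR gene, lower, and 3 hnRNP genes, of which 1 was higher. This count is lower by construction, since 11 members are left out. With 8-base matches alone, members with a site numbered 2 for miR-23, 1 for miR-27 and 2 for miR-24. No paired analysis was possible because the library columns are numbered in a way that ties none of them to a sample or genotype; leaving out single libraries, other pseudocounts and limma were not run for the same reason. Depth per library is unknown, so precision is known only through the SEs.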

Other observations

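No SR or hnRNP gene lies close to the altered loci. Hnrnpk and Hnrnpa0 are on chromosome 13 with the Mirc22 cluster, at 4.90 and 5.17 Mb from it, and neither was called. Hnrnph3 is on chromosome 10 with Lyz2, at 54.3 Mb, and no member is on chromosome 8 with Mirc11.

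Sequence shared with other genes varied widely over the families. The median share of 31-base stretches found elsewhere was 8.23%, and 6 members, among them Srsf9, Hnrnpu and Hnrnpll, shared none. The highest shares were those of Srsf4 (66.5%), Hnrnpf (66.2%) and Hnrnpa1 (49.4%). Srsf3 (37.6%), Srsf2 (34.0%), Srsf5 (31.9%), Hnrnpk (30.3%), Hnrnpa3 (28.6%) and Hnrnpab (28.1%) came next, and their values are uncertain for the same reason. For Srsf2 and Hnrnpab the genes sharing most were Mettl23 and Phykpl, both annotated on the opposite strand. The number of pseudogenes sharing at least 1 stretch was highest for Hnrnpd (98 of 3503 sharing genes), Hnrnpr (79 of 2790) and Hnrnph2 (63 of 3023). Hnrnpa3 (46 of 54) and Hnrnpa1 (25 of 26) followed, and most of the genes sharing with these were pseudogenes. Hnrnpd and Hnrnpr shared 6.13% and 8.74% of their stretches, against 28.6% for Hnrnpa3. Srsf3-ps, a pseudogene outside the naming rule, had a mean normalized count of 4.11 in the authors' deposited table, against 8433 for Srsf3.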
